A study of Mus musculus with 2 samples.

Results

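The miR-148 and miR-152 family of the mouse consists of Mir148a, Mir148b and Mir152, and its members were chosen by gene symbol: 3 of the 2202 microRNA genes counted in heart. The libraries came from heart tissue of female B6CASTF1/J mice, the hybrid offspring of C57BL/6J and CAST/EiJ, at an adult age of 18 to 20 months, with no treatment named in the labels. They form 1 group of 2 libraries, numbered in the labels as biological replicates 1 and 2. The labels give the tissues separate records under a shared donor record, so whether they came from separate animals is open. Every SD below, over n = 2, therefore measures only the spread between these 2 libraries, which may be technical. Every p-value sets the difference between these 2 libraries against counting noise alone. The questions that 1 group allows are how high each family gene stood, how the family was composed, and how far the libraries differed.

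A microRNA hairpin is cut into a duplex of about the length of a small interfering RNA, and 1 strand of it guides Argonaute to messenger RNAs that pair with its seed, the bases numbered 2 to 8 from the 5′ end. Members of a seed family can therefore recognise the same sites. The miR-148 and miR-152 family is known for its action on Dnmt1, the maintenance DNA methyltransferase, and miR-148a for its action on the cholesterol exporter Abca1. In the heart, miR-148a is known as a regulator of Il6st, the gp130 subunit of interleukin-6 family receptors. Mir148b and Mir152 lie inside genes of coat protein subunits, Copz1 and Copz2.

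The mature sequences carry what the genes share and what lets their reads be told apart. They are from RefSeq on GRCm38.p6, the assembly also called mm10, with the seed in capitals and all 3 genes matched by symbol.
miR-148a-3p: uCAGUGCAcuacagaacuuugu
miR-148b-3p: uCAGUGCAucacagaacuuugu
miR-152-3p: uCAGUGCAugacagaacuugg
miR-148a-5p: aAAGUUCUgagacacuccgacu
miR-148b-5p: gAAGUUCUguuauacacucaggcu
miR-152-5p: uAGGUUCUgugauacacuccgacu
The 3p arms of the 3 hairpins shared the seed CAGUGCA, and no other mature microRNA among the 1738 in the RefSeq table carried it at bases 2 to 8. Of the 5p arms, those of Mir148a and Mir148b had the seed AAGUUCU and that of Mir152 had AGGUUCU.

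Counted from the 5′ end, miR-148a-3p and miR-148b-3p differed by C9U and U10C, where the base of miR-148a-3p stands before the position. From miR-148a-3p to miR-152-3p the differences were C9U, U10G and U20G over the 21 bases they have in common, and from miR-148b-3p to miR-152-3p they were C10G and U20G. The longest run of identical bases at the same positions was 12 between the Mir148a and Mir148b arms and 9 between either of them and the Mir152 arm. Across the hairpins, the longest stretch that any pair of members shared was 15 nt, between Mir148a and Mir148b, and the longest that a member shared with any of the 1002 other mouse hairpins of the table was 12 nt. Each 3p arm occurred exactly in the transcript of 1 gene of GENCODE M21, its own hairpin, and copies in the genome outside annotated transcripts were not searched. Reads that map to more than 1 place entered no gene count and took 43.9% and 43.2% of all reads in replicates 1 and 2, but a full-length read without errors from a 3p arm of this family matched 1 annotated hairpin. Whether variants of CAST/EiJ lower any of these counts was not tested.

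Mir148b and Mir152 lie in introns, and Mir148a does not. In mm10, Mir148a lies between genes at chr6:51269812-51269910 on the minus strand and is 99 bp long. Mir148b lies at chr15:103285125-103285221 on the plus strand and is 97 bp long, inside intron 1 of the 8 introns of the principal transcript of Copz1. Mir152, at chr11:96850393-96850465 on the plus strand and 73 bp long, lies inside intron 1 of the 8 introns of the principal transcript of Copz2. The Copz1 intron spans 16159 bp and the Copz2 intron 676 bp, and no annotated exon of either host covers the hairpin. No gene is annotated on the opposite strand of any of the 3.

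Each hairpin has a gene of the Nfe2 family of transcription factors as a nearest protein-coding neighbour on 1 side, and a Hox cluster, which patterns the body axis, on the same chromosome (Hoxa for Mir148a, Hoxc for Mir148b and Hoxb for Mir152). Measured between nearest ends, Nfe2l3 lies 163 kb from Mir148a, Nfe2 lies 26.7 kb from Mir148b and Nfe2l1 lies 20.4 kb from Mir152. Measured between midpoints instead, Hoxc4 is 257 kb from Mir148b and Hoxb1 is 483 kb from Mir152. Each is the nearest Hox gene on that chromosome, and no such distance is given for Mir148a. Hairpin alignments, with gap columns counted, held 71 identical of 103 columns (68.9%) for Mir148a and Mir148b. They held 58 of 101 (57.4%) for Mir148a and Mir152 and 59 of 99 (59.6%) for Mir148b and Mir152. The annotated Mir152 hairpin is shorter, at 73 nt against 99 and 97 nt, so gaps lower its values. These percentages therefore do not rank the pairs by divergence of the bases that align. The Mir152 hairpin was the richest of the 3 in G and C, at 61.6% against 45.5% for Mir148a and 45.4% for Mir148b.

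The shared seed pairs with the letters TGCACTG in a messenger RNA. These letters were searched on the transcribed strand of the longest annotated 3′ UTR of 5 genes of DNA methylation, cholesterol transport, cytokine signalling and fatty acid metabolism, picked as background examples and not for any value in these data. The match is in capitals, and the coordinates are those of the match in mm10.
Dnmt1, chr9:20907492-20907498, minus strand: cccagagccccacgTGCACTGatgtttt
Abca1, chr4:53033883-53033889, minus strand: gcgaggtcttccttTGCACTGtgtcaag
Il6st, chr13:112504668-112504674, plus strand: tctttcagaatgttTGCACTGccgaaaa
Ppargc1a, chr5:51457011-51457017, minus strand: ttttgttacagctaTGCACTGtaaatgc
Of the 5 genes, 4 held a match: Dnmt1 1, Abca1 2, Il6st 3 and Ppargc1a 1, of which the one nearest the stop codon is shown. Cpt1a, the carnitine palmitoyltransferase of fatty acid oxidation, held none in its 1892 bases. In Dnmt1 the match is followed by an A, the letter that often stands opposite base 1 of a microRNA.

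A match of this length is common in long 3′ UTRs. Over 21020 genes with an annotated 3′ UTR, 12.7% held the letters. Among UTRs within 20% of its length, the share was 3.12% for Dnmt1 (312 bases), 24.9% for Abca1 (3156 bases), 38.6% for Il6st (5641 bases), 30.2% for Ppargc1a (3930 bases) and 17.1% for Cpt1a. The libraries hold small RNA only, so the levels of these messenger RNAs were not measured.

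Reads on the sense strand of microRNA genes numbered 3383676 in replicate 1 and 3676084 in replicate 2, and levels are counts per 1000000 of these (CPM). Wilson 95% intervals per library describe the error of counting alone: PCR copies were not collapsed by molecular identifiers, so reads are not independent molecules. A gene was called detected if neither library had fewer than 10 counts, which held for 316 genes. The heart muscle markers Mir208a, Mir208b and Mir499, processed from introns of cardiac myosin genes, were all detected, with a summed level of 5624 and 4831 CPM in replicates 1 and 2, while Mir122, the defining microRNA of hepatocytes, stood at 23.9 and 17.1 CPM.

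All 3 family genes were detected, at modest levels, and ranked 116, 142 and 143 by mean level among the 316 detected genes. Mir152 was counted 844 times in replicate 1 and 285 times in replicate 2, or 249 CPM (233 to 267) and 77.5 CPM (69.0 to 87.1). Mir148b was counted 360 and 286 times, or 106 CPM (96.0 to 118) and 77.8 CPM (69.3 to 87.4). Mir148a was counted 272 and 341 times, or 80.4 CPM (71.4 to 90.5) and 92.8 CPM (83.4 to 103).

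Replicate 1 was thus the higher library for Mir152 and Mir148b, whose intervals did not overlap between the libraries, and those of Mir148a did overlap. The means were 163 ± 122 CPM for Mir152, 92.1 ± 20.2 CPM for Mir148b and 86.6 ± 8.75 CPM for Mir148a (SD, n = 2). The order of these means is not resolved, since Mir152 exceeded either of the others by less than its own SD, and Mir148b exceeded Mir148a by less than either SD. No antisense read was counted for any of the 3 genes in either library, which allows up to 3 counts, or 0.887 CPM in replicate 1 and 0.816 CPM in replicate 2.

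**Figure D1:**
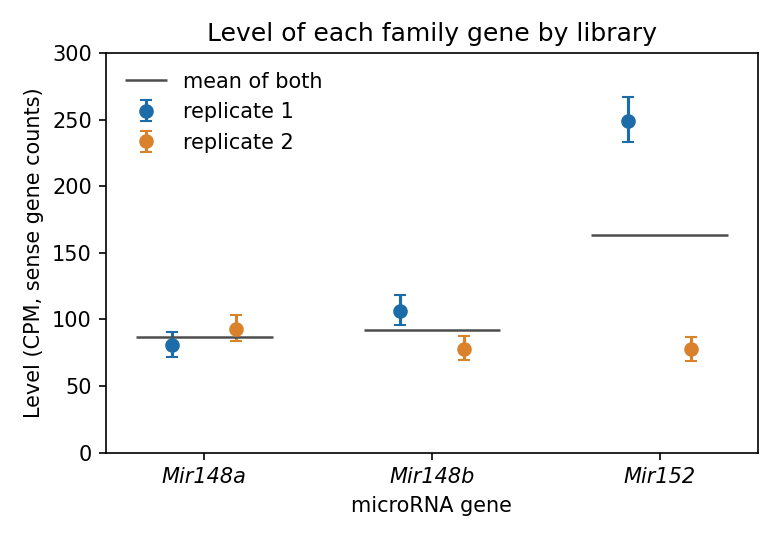
Level of each family gene in CPM (vertical axis, linear from 0) in replicate 1 and replicate 2, with Wilson 95% intervals of counting error as bars and the mean of both libraries as a line. The points of Mir152 lie at 249 and 77.5 CPM, while the points of the other genes all lie between 77.8 and 106 CPM.

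Nearby genes in the order of mean level include a relative by sequence. Just above Mir148b stood Mir196b, of the Hoxa cluster, at 95.1 ± 16.8 CPM, and Mir1843b at 93.0 ± 5.37 CPM. Just below Mir148a stood Mir130b at 80.3 ± 5.71 CPM and Mir382, of the imprinted Dlk1-Dio3 cluster, at 79.9 ± 17.4 CPM. Mir152 stood between Mir3102 (167 ± 3.56 CPM) and Mir125b-2 (167 ± 7.03 CPM) above it and Snord43 (163 ± 106 CPM), a small nucleolar RNA gene that the table lists among its microRNA genes, and Mir671 (161 ± 10.4 CPM) below it. Each of these neighbours differed from the family gene beside it by less than the larger SD of the pair. Mir125b-2 shares a mature sequence with Mir125b-1, so its counts are uncertain.

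The family as a whole held 1476 counts in replicate 1 and 912 in replicate 2. That is 436 CPM (415 to 459) and 248 CPM (233 to 265), or 0.0342% ± 0.0133 of the sense gene counts. Mir152 made up 57.2% of the family counts of replicate 1 (54.6 to 59.7) but 31.2% of those of replicate 2 (28.3 to 34.3). Mir148a made up 18.4% (16.5 to 20.5) and 37.4% (34.3 to 40.6), and Mir148b made up 24.4% (22.3 to 26.6) and 31.4% (28.4 to 34.4). In replicate 1 Mir152 was the most counted member and Mir148a the least, whereas in replicate 2 the members lay close together with Mir148a highest.

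**Figure D2:**
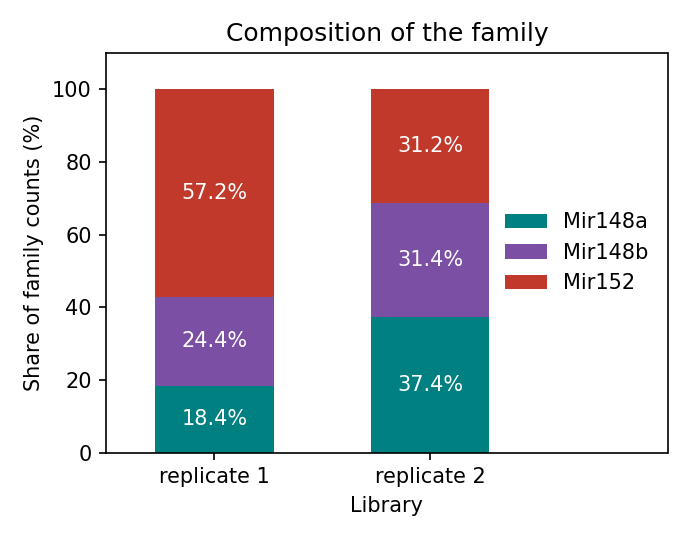
Share of the family counts held by each gene (vertical axis, percent from 0) in replicate 1 and replicate 2. Mir152 holds 57.2% of the bar of replicate 1 and 31.2% of that of replicate 2, and Mir148a holds 18.4% and 37.4%.

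Ratios within a library need no scaling between libraries. Mir152 stood at 3.10 times Mir148a in replicate 1 (exact 95% interval 2.70 to 3.57), but in replicate 2 at 0.836 times (0.712 to 0.981). Relative to Mir148b, Mir152 stood at 2.34 times (2.07 to 2.66) and 0.997 times (0.843 to 1.18). Mir148a stood at 0.756 times Mir148b in replicate 1 (0.643 to 0.887) and at 1.19 times in replicate 2 (1.02 to 1.40). For none of the 3 pairs did the intervals of the libraries overlap, so the composition differed between the libraries beyond counting error, and the order of Mir148a and Mir148b was opposite in them.

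The libraries were then compared gene by gene, with counts scaled by trimmed mean of M-values (TMM) factors. A two-sided exact binomial test with Benjamini-Hochberg adjustment over the 316 detected genes gave the calls, at an adjusted p under 0.05. It compares 2 libraries with counting noise, not conditions. It called 2 of the 3 family genes, both higher in replicate 1. The background was 60.4% of detected genes called in either direction, with 27.2% called higher in replicate 1 and 33.2% in replicate 2. That split depends on the scaling: 105 genes were higher in replicate 2 and 86 in replicate 1, against 128 and 70 with library totals and 87 and 89 with reads on either strand. The share of members called in either direction is near that background, and 3 members are too few to read a direction against it.

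Mir152 had a log2 ratio of replicate 2 over replicate 1 of -1.81 (exact 95% interval -2.01 to -1.61; exact binomial test, adjusted p = 3.90e-86), a difference of 3.51-fold. Mir148b had a log2 ratio of -0.58 (-0.80 to -0.35; exact binomial test, adjusted p = 1.25e-06), or 1.49-fold. Mir148a had a log2 ratio of 0.08 (-0.15 to 0.32; exact binomial test, adjusted p = 0.575) and was not called. The intervals of the 3 log2 ratios did not overlap, so genes of a common seed differed between the libraries to unequal extents.

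The sizes can be read against all detected genes, whose median absolute log2 ratio was 0.45. A larger absolute ratio than that of Mir152 was found in 25 of the 316 genes (7.91%), than that of Mir148b in 128 (40.5%) and than that of Mir148a in 273 (86.4%). Among the 105 detected genes with a mean of 100 to 1000 counts, which are of like depth, 10 exceeded Mir152. Called genes that lay 2-fold or more apart made up 21.2% of detected genes, and those of them higher in replicate 1 made up 11.1%. Mir152 was the family gene among these.

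**Figure D3:**
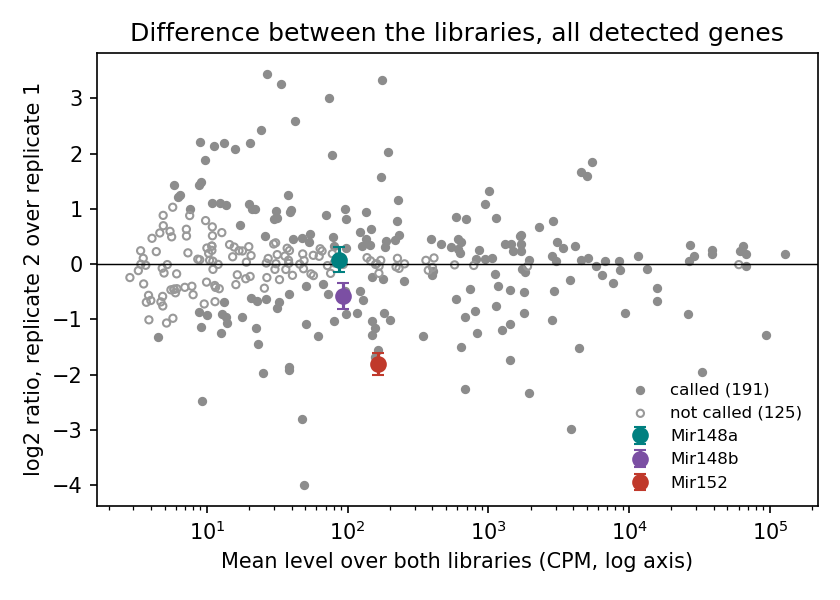
log2 ratio of replicate 2 over replicate 1 (vertical axis) against the mean level in CPM (log axis) for the 316 detected genes, filled grey where called by the exact binomial test and open where not, with the family genes in colour and exact 95% intervals as bars. Mir152 lies at -1.81, below most genes of like level, Mir148b at -0.58 and Mir148a at 0.08, close to the middle of the cloud.

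Genes with the most similar difference between the libraries were picked by the smallest distance in log2 ratio among detected genes averaging at least 100 counts, a likeness that rests on 2 libraries. For Mir152 they were Mir340 (log2 ratio -1.86, distance 0.0552), Mir15a (-1.74, distance 0.0649) and Mir208b (-1.91, distance 0.100). Mir208b comes from the gene of the slow and fetal cardiac myosin heavy chain, and Mir15a belongs to a family that restrains the cell cycle. For Mir148b they were Mir3058 (-0.54), Mir1a-2 (-0.54), a locus of the muscle microRNA miR-1, and Mir497 (-0.63). For Mir148a they were Mir181b-2 (0.08), Mirlet7a-1 (0.09) and Mirlet7c-2 (0.07), which the test called at their greater depth but which DESeq2 size factors do not call. Mir1a-2, Mir181b-2, Mirlet7a-1 and Mirlet7c-2 encode mature sequences that other loci hold as well, so their counts are uncertain.

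The miR-130 and miR-301 family holds the closest relatives by seed. Its members carry the letters of the miR-148 and miR-152 seed 1 base earlier, at bases 1 to 7, capitals here.
miR-130a-3p: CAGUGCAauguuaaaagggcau
miR-130b-3p: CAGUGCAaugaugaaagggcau
miR-301a-3p: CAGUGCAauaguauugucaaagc
Of the 1738 mature sequences of the RefSeq table, which is not complete (it has no 3p arm of Mir301b), 7 began with these letters, among them the 3 shown, and the genes of the other 4 (Mir130c, Mir6341, Mir6389 and Mir721) had 0 counts in both libraries.

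The 5 listed genes of the miR-130 and miR-301 family summed to 1566 CPM in replicate 1 and 2082 CPM in replicate 2, or 0.182% ± 0.0364 of the gene counts. They stood at 3.59 times the miR-148 and miR-152 family in replicate 1 (exact 95% interval 3.39 to 3.81), and in replicate 2 at 8.39 times (7.83 to 9.00). Mir130a, with 1408 and 1984 CPM, made up most of that sum and was called higher in replicate 2 (log2 ratio 0.37), while Mir301, with 81.9 and 12.8 CPM, was called higher in replicate 1 (-2.80). Mir130b, at 76.2 and 84.3 CPM, was not called (0.02), a value whose sign turns with DESeq2 size factors. Of 5 genes, 3 were detected, 1 was called in each direction, and Mir301b had 2 counts in each library. Calls reached 60.4% of all detected genes, 27.2% higher in replicate 1 and 33.2% in replicate 2. The 3 detected relatives are too few to be set apart from that background.

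MicroRNAs known to act on DNA methyltransferases, the enzymes that miR-148 and miR-152 is best known for, were listed without the family itself. Of the 8 genes, all were detected, 5 were called higher in replicate 1 and 2 in replicate 2, with a median log2 ratio of -0.54 against 0.05 over all detected genes. Over all detected genes 60.4% were called, 27.2% higher in replicate 1 and 33.2% in replicate 2, and 8 genes are too few to set the list apart from them. Mir126a, of endothelial cells, had 129043 and 57714 CPM (log2 ratio -1.28). Mir29a, of the family known for de novo methyltransferases and collagens, had 33041 and 19297 CPM (-0.90). Its relative Mir29c had 1889 and 968 CPM (-1.09), and Mir185 had 1292 and 1069 CPM (-0.40). Mir143 (33589 and 43744 CPM, log2 ratio 0.26) and Mir342 (776 and 1501 CPM, 0.83) were called higher in replicate 2.

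By mean level, Mir152 stood below 6 of these 8 genes. It stood above Mir29b-1 (40.6 ± 1.57 CPM) and Mir29b-2 (32.4 ± 8.91 CPM), which encode the same mature microRNA, so their counts are uncertain. The call for Mir126a is lost with reads counted on either strand, where ambiguous reads are set aside and the log2 ratio is -0.32.

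Among 11 microRNAs known from cholesterol handling, 9 were detected, 4 were called higher in replicate 1 and 1 in replicate 2. The median log2 ratio was -0.04, a value that turns to 0.08 with library totals. Over all detected genes the called share was 60.4%, with 27.2% higher in replicate 1 and 33.2% in replicate 2. The 9 genes are too few to set the list apart from that background. Mir27b stood at 6594 and 6245 CPM (log2 ratio -0.20) and the erythroid Mir144 at 1119 and 255 CPM (-2.26). Mir27a, at 1843 and 1953 CPM, was not called (-0.04), whereas DESeq2 size factors called it higher in replicate 1 (-0.09) and library totals higher in replicate 2 (0.08). Mir223, of myeloid cells, stood at 133 and 322 CPM (1.15) and was the gene called higher in replicate 2. Mir33, from an intron of the sterol regulator Srebf2, had 27 and 34 counts (0.09), below each of the family genes. The calls of Mir122 (-0.61) and Mir128-1 (-0.28) are lost with library totals. Mir128-1 shares a mature sequence with Mir128-2, so its counts are uncertain.

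Of the 6 microRNA genes inside the Hox clusters, 4 were detected, 2 were called higher in replicate 2 and 1 in replicate 1. Mir196a-1, at 0 counts in both libraries, and Mir196a-2, at 1 and 4 counts, were not detected. Reads shared by these miR-196a loci would map to more than 1 place and enter no gene count, so their levels are uncertain. Their median log2 ratio was 0.20. Among all detected genes 60.4% were called, 33.2% higher in replicate 2 and 27.2% in replicate 1. The 4 Hox cluster genes are too few to be set apart from these shares. Mir10a, in the Hoxb cluster on the chromosome of Mir152, stood at 1309.5 and 2029.9 CPM (log2 ratio 0.51) and so differed between the libraries in the opposite direction from Mir152. Mir196b, in the Hoxa cluster on the chromosome of Mir148a, stood at 107 and 83.2 CPM (-0.49) and was called higher in replicate 1, while Mir148a was not called. Mir10b, in the Hoxd cluster, stood at 539.6 and 1477 CPM (1.33), and Mir615, in the Hoxc cluster on the chromosome of Mir148b, had 11 and 12 counts (-0.12), a value whose sign turns with library totals.

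**Figure D4:**
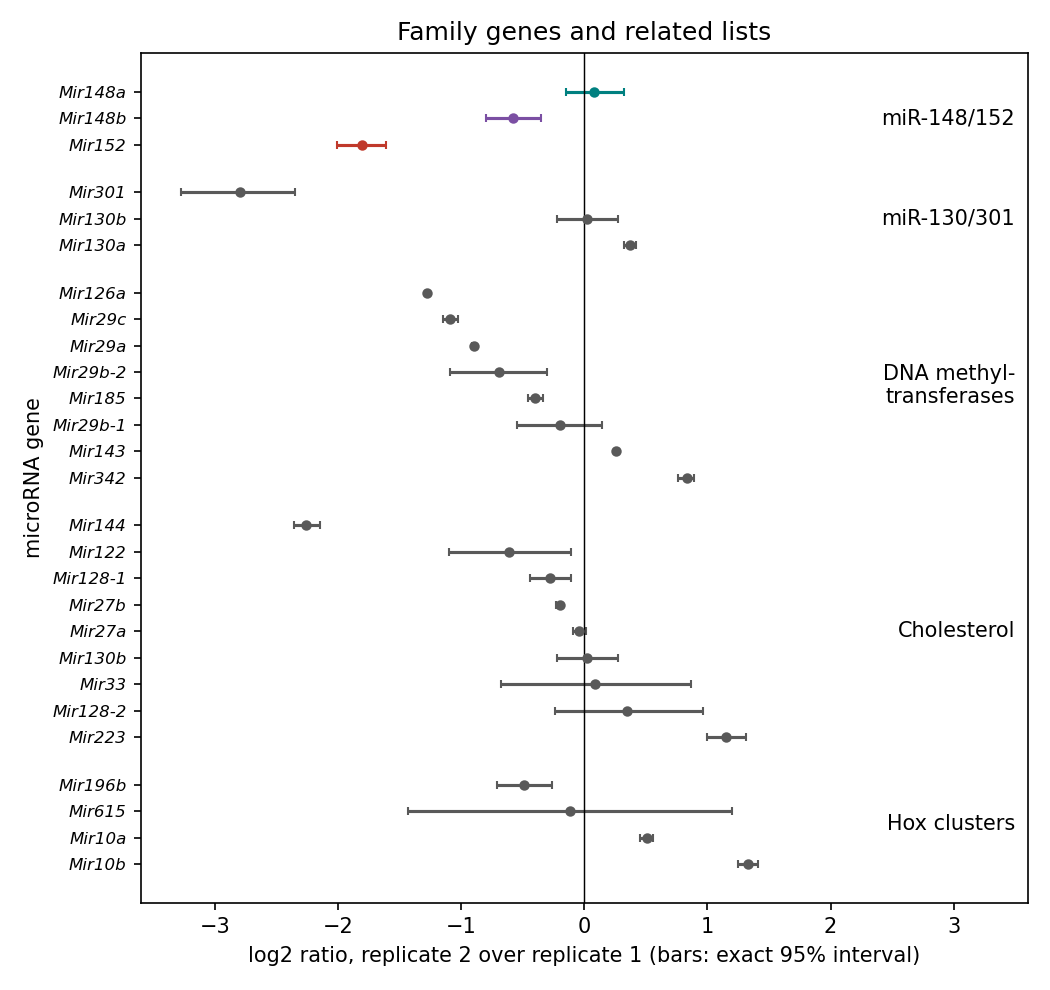
log2 ratio of replicate 2 over replicate 1 (horizontal axis) with its exact 95% interval for the 3 family genes and for the detected genes of the 4 related lists. Values run from -2.80 (Mir301) to 1.33 (Mir10b), and each list holds values on both sides of 0.

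Markers of several cell types differed between the libraries, some in the direction of Mir152 and others in the opposite direction. Their part in the differences of the family was not tested. As background, 60.4% of all detected genes were called, 27.2% higher in replicate 1 and 33.2% in replicate 2. The marker lists are too short to be set apart from that background. Sums of erythroid markers (3 genes) stood at 4182 and 1938 CPM, with 3 of 3 called higher in replicate 1, and the endothelial pair at 129044 and 57715 CPM, with Mir126a called and Mir126b at 4 and 1 counts. Heart muscle markers were called higher in replicate 1 in 3 of 3 cases, with log2 ratios of -1.91 for Mir208b, -0.47 for Mir208a and -0.28 for Mir499 beside -1.81 for Mir152. White blood cell markers were higher in replicate 2 in 5 of 5 cases, with sums of 8644 and 16363 CPM, and Mir155 (log2 ratio 0.07) loses its call under DESeq2 size factors. With reads on either strand, 1 of the 3 erythroid genes was detected (called higher in replicate 1, log2 ratio -2.34), Mir126a was not called, and of the 4 white blood cell markers still detected 3 had a call, each toward replicate 2. Smooth muscle markers (35639 and 50822 CPM, 2 of 2) and epithelial and endocrine markers (216 and 857 CPM, 6 of 8, with Mir205 at 5 and 106 counts and not tested) were higher in replicate 2 as well.

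Fibroblast and stroma markers did not move 1 way. Their sum was 5771 and 5947 CPM, and of 6 genes 5 were detected, 2 called higher in replicate 2 (Mir21a, log2 ratio 0.78, and Mir10b) and 1 in replicate 1. That gene, Mir214, with 3217 and 695 CPM and a log2 ratio of -2.33, differed in the same direction as Mir152. Mir199a-1 was at 0 counts in both libraries, but it encodes the same mature microRNA as Mir199a-2. Reads that map to more than 1 place entered no gene count, so the counts of both loci and the sum are uncertain. In bulk tissue, fewer cells of a type and less of the RNA per cell cannot be told apart.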

How the data were processed

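Small RNA from heart was sequenced in 2 libraries. Raw counts for each microRNA gene were deposited by the authors in 3 columns (reads on either strand, sense and antisense, as read from the values, since the files have no headers). Assembly mm10 and annotation GENCODE M21 are named in the text deposited with each library; the aligner and counter were not given in the sources used here. The 4 rows that are no genes (unmapped, multimapping, featureless, ambiguous: 14.9%, 43.9%, 5.07% and 0% of reads in replicate 1, and 16.2%, 43.2%, 5.75% and 0% in replicate 2) stayed out of totals and tests. The sense column was used, and counts per hairpin gene do not separate its arms.

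All 2202 identifiers matched GENCODE M21. CPM used the sense totals, at which 3 counts are 0.887 and 0.816 CPM. TMM factors came from edgeR 4.0.16 and alternative size factors from DESeq2 1.42.0; neither tool's group test can be made with 1 group. Tests ran in Python 3.11.15 with scipy 1.17.1. The binomial step was tested on data simulated with counting noise alone. Its behaviour under PCR copies or other spread between libraries was not tested. Hairpins were aligned globally with Biopython 1.88. Named were the members, the 2 detected genes above and below each by mean CPM, the 3 nearest in log2 ratio, and the highest genes of 4 related and 8 marker lists; Mir130c, Mir6341, Mir6389, Mir721, Mir301b, Mir205, Mir33 and list members beyond the highest 4 were named after their values were seen. Some results, of a 3′ UTR and of a distance between genes, are not reported here. Members and lists were chosen with earlier results of these data known. Alternatives were the either-strand column, other scalings, filters and denominators, thinning, and each library left out.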

Additional observations from a re-analysis of the deposited data

How the results depend on the processing

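The calls of Mir148b and Mir152 and the missing call of Mir148a held under all 6 alternatives tried, with log2 ratios (replicate 2 to replicate 1) from -0.66 to -0.45, from -1.89 to -1.69 and from 0.00 to 0.21, and adjusted p (exact binomial test) of 2.38e-08 to 1.71e-04, 2.97e-94 to 2.19e-74 and 0.121 to 1.00. The number of genes called, 191 or 60.4% of 316 tested, ranged from 136 to 204, with changed numbers of genes tested. The 136 called with at least 100 counts in each library are 75.1% of 181 genes tested. The 204 called without a filter on low counts are 28.8% of 708 genes tested. The median log2 ratio of detected genes went from 0.05 to 0.18 when library totals were used. With reads on either strand the member counts were the same but the totals smaller, so every level rose. Means became 116 CPM for Mir148a, 124 CPM for Mir148b and 222 CPM for Mir152. The family share became 0.0462% and the miR-130 and miR-301 share 0.244%. With all reads as denominator the means were 30.7, 32.8 and 58.6 per 1000000 reads for Mir148a, Mir148b and Mir152. The shares were then 0.0122% for the family and 0.0646% for miR-130 and miR-301. Leaving out a library gives the value of the other, from 77.5 to 249 CPM for Mir152. No paired analysis was possible because the design has 1 group. With 2 libraries, how far the differences exceed the spread between hearts cannot be told.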
